A study of Mus musculus with 9 samples.

Results

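The 9 genes described here, of the 32287 gene IDs in the count matrix, are chemokines and chemokine receptors of glia, neuroblasts and microglia in the mouse ventricular-subventricular zone (vSVZ) and the olfactory system it feeds. They comprise 6 ligands (Cxcl10, Cxcl12, Cxcl14, Cx3cl1, Ccl3 and Ccl4) and 3 receptors (Cxcr4, Ackr3 and Cx3cr1), taken as a list of gene names and not by a threshold on their values. Each was described by its level in CPM, the gene's UMIs (molecules counted once each) per 1000000 UMIs of all genes in a cell class, and by the share of cells with at least 1 UMI.

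Chemokines are small signalling proteins that steer migrating cells along gradients through receptors coupled to G proteins. Cxcl12 signals through Cxcr4, and Ackr3 is an atypical receptor that binds and takes up the same ligand. Cx3cl1 is a membrane-anchored chemokine of neurons whose receptor, Cx3cr1, is a hallmark of microglia. Ccl3 and Ccl4 are inflammatory chemokines that immune cells secrete, Cxcl10 is a classical interferon-induced chemokine, and Cxcl14 is a chemokine of epithelia and brain cells for which no receptor is settled.

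The 4 libraries were droplet-based 3′ single-cell RNA libraries of TiCY mice, in which tamoxifen-activated Cre under the Tlx promoter switches on eYFP in neural stem cells and their progeny. The WT young group was 16 weeks old, with tamoxifen at 10 weeks and a chase of 6 weeks. The WT old group was 80 weeks old, with tamoxifen at 71 weeks and a chase of 9 weeks. The IFNAGR KO mice, which lack Ifnar1 and Ifngr1, the receptor genes for type I and type II interferon, were 16 weeks old in the KO young group, with tamoxifen at 7 weeks, and 92 or 105 weeks old in the KO old group, with tamoxifen at 85 or 98 weeks. Both KO groups are labelled with a chase of 9 weeks, which with the tamoxifen ages of the KO old mice sums to 2 weeks more than their labelled ages. Each group held 2 mice, told apart by hashtag antibodies that also marked the vSVZ and the rest of the brain (RoB, a pool of olfactory bulb, rostral migratory stream and striatum). Cells sorted from the vSVZ were eYFP+ or GLAST+, those from RoB were eYFP+ or eYFP-/PSANCAM low, and cells positive for CD45, Ter119 or O4 were gated out. Each group was 1 droplet reaction, so group and reaction cannot be told apart, nor can genotype and the older age of the KO old mice, or age and the shorter chase of the WT young mice. Nor can genotype in young mice be told apart from chase and tamoxifen age. The chase was 6 weeks in WT young and 9 weeks in KO young mice, with tamoxifen at 10 and 7 weeks. The p-values below compare mice that shared 1 reaction per group.

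After filtering, 18051 cells remained, between 2394 and 6462 per library, with a median of 5024.5 to 7393 UMIs per cell, and 60 of them carried a barcode sequence also kept in another library. Of these, 5813 (32.2%; 20.4 to 60.4% per library) could be assigned to a mouse and tissue, and the tests over mice rest on them alone. Ifnar1 stood at 21.3 (young) and 28.5 CPM (old) in the WT libraries against 8.07 and 6.57 in the KO ones, and Ifngr1 at 46.8 and 85.5 against 2.86 and 4.40. Clusters built without the chemokine family were named from marker genes: 5999 astroglia-like cells, 1823 activated progenitor-like, 6388 neuroblast-like, 648 neuron-like, 2025 olfactory ensheathing glia-like (OEG-like), 328 microglia-like, 99 endothelial-like, 133 oligodendrocyte-like and 81 OPC-like cells, referred to below without the suffix. Microglia and oligodendrocytes were thus recovered although the gates were set against CD45 and O4, and T or NK cell markers (0 of 5 detected) and fibroblast markers (0 of 5) were at 0 in the microglia of every library.

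For 7 of the 9 members 1 class stood apart, with its lowest library above the highest library of every other class. They were Cxcl12 in endothelial cells, Cxcl14 in astroglia, Cx3cl1 in neurons, Cxcr4 in OEG, and Cx3cr1, Ccl3 and Ccl4 in microglia, whereas Ackr3 was spread over several classes. Cxcl10 was close to 0 in every class. These orders are descriptions, since the genes were picked as genes of these cell types.

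**Figure D1:**
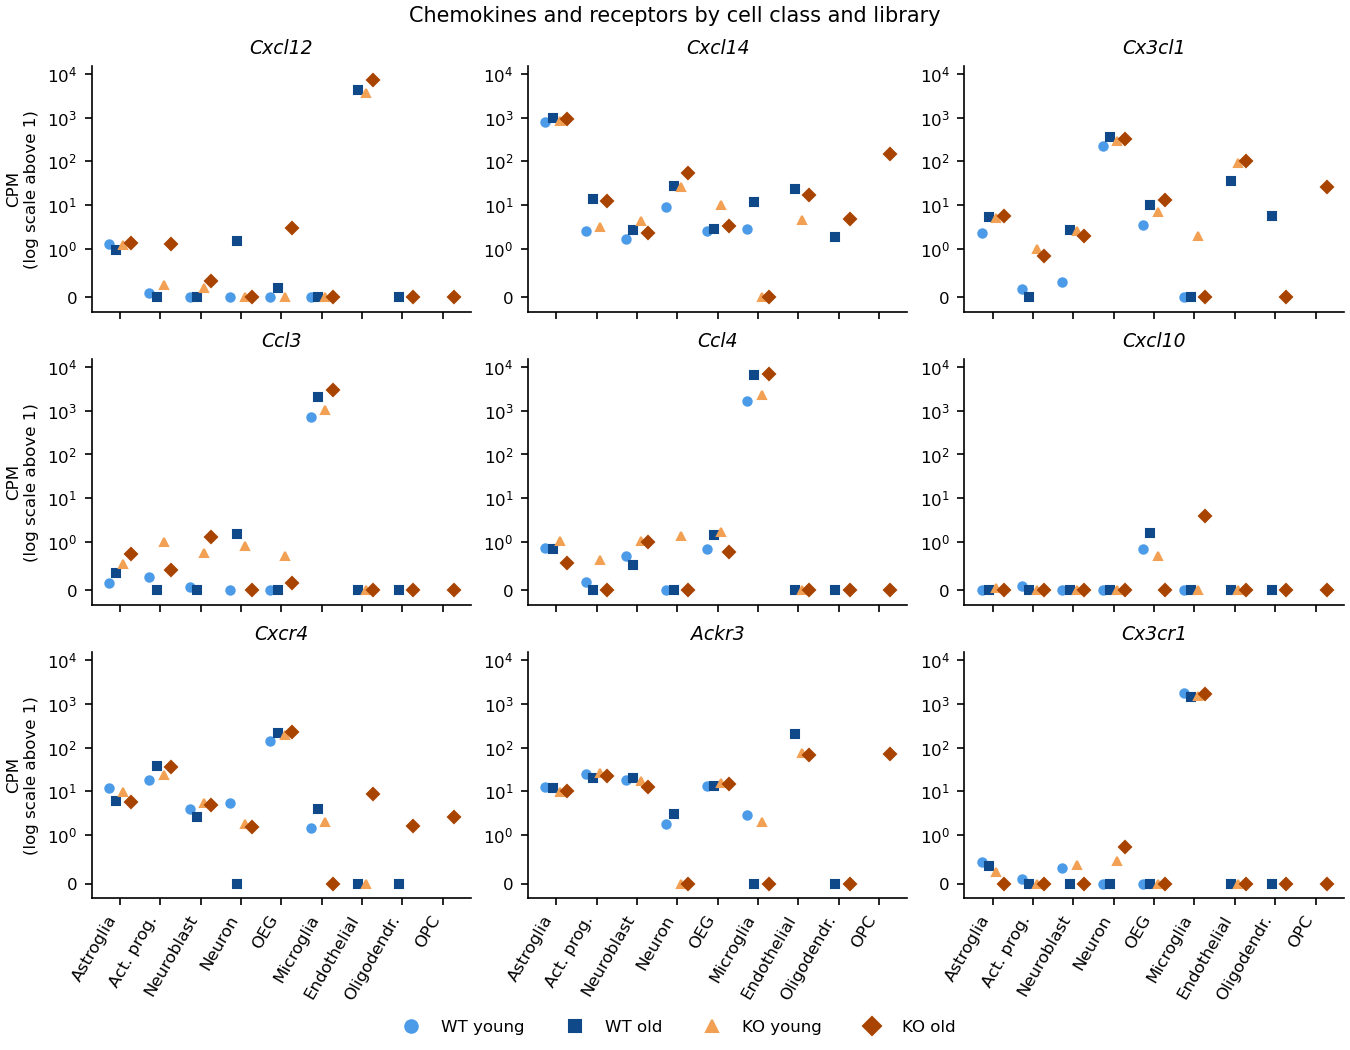
Level of each of the 9 genes in CPM (vertical axis, log scale above 1, linear below) by cell class (horizontal axis), 1 point per library with at least 20 cells of the class. Cxcl12 sits at 3745 or above in endothelial cells and at 3.01 or below elsewhere, Ccl3, Ccl4 and Cx3cr1 stand out in microglia, and Ackr3 shows no single dominant class.

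Among the ligands, Cxcl14 (ENSMUSG00000021508, protein coding, GRCm38 chr13:56288643-56296551, minus strand) marked the astroglia. Its level there was 788 CPM in young and 995 in old WT, and 825 and 946 in young and old KO. A UMI was found in 78.6% and 92.4% of the WT and 83.5% and 91.0% of the KO astroglia, again young before old. Thinning every cell to 1000 UMIs left 47.4 to 57.9% of astroglia with one. The next class was the OPCs of the KO old library, the only library with at least 20 such cells, at 147 CPM (95% counting interval 111 to 190). Neurons followed at 9.06 to 54.0, and their range overlapped that of endothelial cells at 4.68 to 23.7. In neuroblasts, which should hold no astroglial RNA, Cxcl14 was at 1.66 to 4.29 CPM with 0.728 to 2.37% of cells positive, at a median of 4162 to 5732 UMIs per cell against 5171 to 7744 in astroglia. Barcodes of 5 to under 100 UMIs, which mostly hold free RNA, carried it at 80.8 (young) and 187 CPM (old) in WT and at 133 and 198 in KO. The OPC value lay below that of its own library.

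The astroglia were not uniform for Cxcl14. The cluster led by Igfbp2 held 1072 to 1329 CPM over the 4 libraries, and the clusters led by Cldn10, by Crym and Cldn10, and by Agt held between 928 and 1154. The cluster led by Crym, Prss56 and Thbs4, in which 49.9% of cells had an eYFP UMI, the highest share among the astroglia, held only 129 to 242. A small cluster led by Mlc1 and Slc6a11 was likewise low at 141 to 246. Thus the eYFP-rich cells were the ones with least Cxcl14 among the large astroglial clusters.

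Cxcl14 also differed with age. In vSVZ astroglia of WT mice, Cxcl14 stood at 577 and 560.1 CPM when young and at 865 and 911 when old. KO mice had 688 and 679 when young, 819.8 and 861 when old. Both old groups lay above both young groups without overlap. The age difference was 0.65 ± 0.08 (log2 ± SE, adjusted p = 1.35e-06, edgeR quasi-likelihood test) in WT and 0.33 ± 0.08 (adjusted p = 0.0124) in KO, where 16% and 4.8% of the 10455 genes tested were called. The age difference did not pass as different between genotypes (interaction −0.32 ± 0.12, adjusted p = 0.181, with 1.39% of genes called). Between KO and WT it was 0.28 ± 0.08 in young (adjusted p = 0.0581, 3.13% of genes called) and −0.04 ± 0.08 in old mice (adjusted p = 0.947, 0.258% called).

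The share of the eYFP-rich cluster moved along with it. Among WT mice the cluster made up 45.9% and 50.6% of vSVZ astroglia when young but 21.3% and 11.3% when old. Among KO mice it made up 36.9% and 37.8%, then 15.9% and 16.6%. Over whole libraries, 61.1% (young) and 12.4% (old) of WT cells and 46.6% and 19.9% of KO cells had an eYFP UMI. Cells were sorted partly on eYFP, and the part of the sort in the cluster share was not tested. Outside the cluster, Cxcl14 lay between 937 and 1050 CPM in all 8 mice, and the age difference there was −0.0051 in WT (adjusted p = 0.986) and −0.028 in KO (adjusted p = 0.946). Inside the cluster, a comparison added after the data had been seen, the young mice held 129 to 159 and the old mice 176 to 307, without overlap. Free RNA held 80.8 (young) and 187 CPM (old) in WT and 133 and 198 in KO. The part of free RNA in the levels inside the cluster was not tested. The difference inside was 0.85 in WT (adjusted p = 0.0660) and 0.66 in KO (adjusted p = 0.195), neither past the threshold. The age difference over all vSVZ astroglia was thus not seen once the cells of that cluster were left out. The 12 immediate early and stress genes, which cell dissociation can raise, summed to 3607 and 3980 CPM in young against 1611 and 2628 in old WT mice, and to 1206 to 2257 in Cxcl14-positive against 6058 to 7721 in Cxcl14-negative astroglia of the 4 libraries. Their part in the difference was not tested. In KO, where the same genes summed to 1878 and 4771 in young and 1873 and 1827 in old mice, the Cxcl14 difference over all vSVZ astroglia also missed the threshold without KO old mouse 2 (adjusted p = 0.128), KO young mouse 1 (0.0709) or KO young mouse 2 (0.204).

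**Figure D2:**
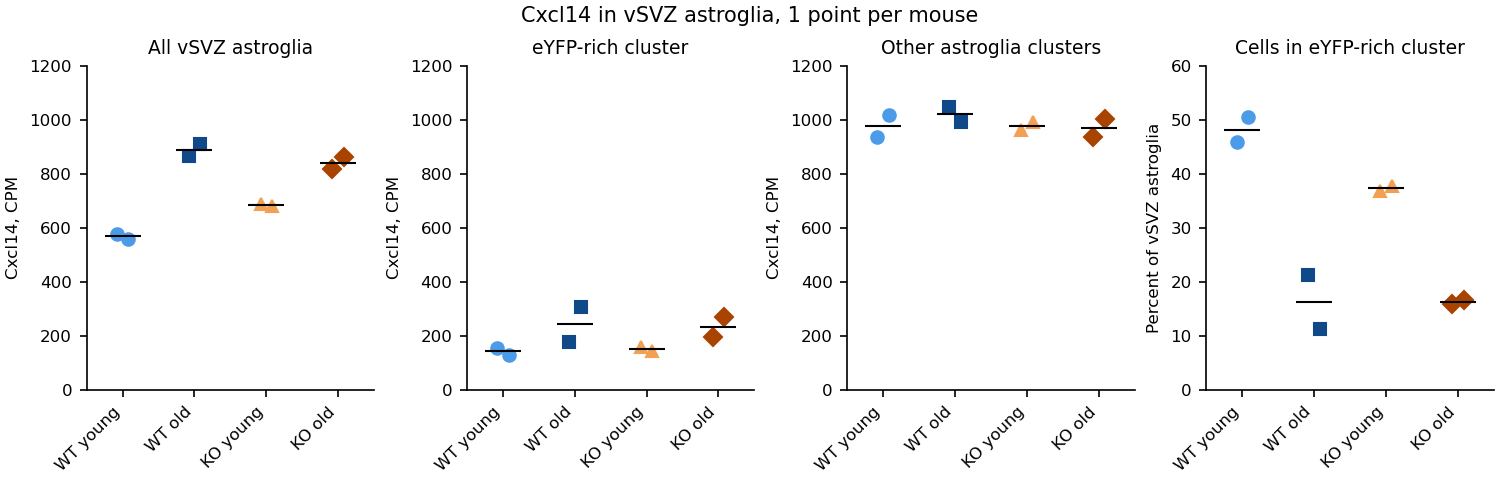
Cxcl14 in vSVZ astroglia in CPM (first 3 panels) and the percent of those cells that belong to the eYFP-rich cluster (last panel), 1 point per mouse with a line at the mean of 2 mice. The old mice are higher over all cells (819.8 to 911 against 560.1 to 688), all 8 mice sit between 937 and 1050 outside the cluster, and the cluster holds 36.9% or more of the cells in young mice and 21.3% or less in old mice.

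In RoB astroglia, where that cluster made up 0 to 25.4% of cells, Cxcl14 was 834 and 668 CPM in young and 1083 and 917 in old WT mice, and 841 and 607 against 1073 and 1037 in KO mice. The old mice were again above the young ones without overlap, but the differences of 0.42 ± 0.15 in WT (adjusted p = 0.167, with 1.29% of 7192 genes called) and 0.55 ± 0.15 in KO (adjusted p = 0.152, 0.25% called) did not pass. Outside the eYFP-rich cluster, RoB astroglia held 881 and 812 CPM in young and 1083 and 917 in old WT mice. The KO mice held 946 and 755 there when young and 1067 and 1062 when old. Unlike in vSVZ, the old mice of each genotype thus still lay above its young mice. The difference of KO from WT RoB astroglia was −0.027 in young mice (0.389% of genes called) and 0.11 in old mice (0.0417% called), with adjusted p = 0.975 and 0.964. In activated progenitors, where few UMIs of it were found, the genotype difference in young mice was −0.67 ± 1.14 (adjusted p = 0.932) and the age difference in KO 1.91 ± 1.05 (adjusted p = 0.489). Within mice, Cxcl14 was lower in vSVZ than in RoB astroglia in 7 of 8 mice, by −0.25 ± 0.06 (adjusted p = 0.00535, with 13.3% of 8045 genes called). Without the eYFP-rich cluster the sign turned, to 0.088 (adjusted p = 0.477).

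Cxcl12 (ENSMUSG00000061353, chr6:117168535-117181367, plus strand), the chemoattractant that keeps blood progenitors in the bone marrow, was a gene of the endothelial cells. Old WT mice had 4344 CPM (95% counting interval 3910.2 to 4813, 21 cells), young KO mice 3745 (3490 to 4013, 40 cells) and old KO mice 7299 (6818 to 7805, 24 cells), with UMIs in 90.5%, 95% and 100% of cells. The WT young library held 14 endothelial cells, under the minimum of 20, and was left out. The old KO library lay above the others by more than the counting error, but with 1 library per group no test of age or genotype was possible. Among the neural classes it was all but undetected: astroglia held 0.979 to 1.33 CPM, in 0.541 to 0.805% of cells, with the eYFP-rich cluster, the highest by its median, at 1.79 to 6.24 and the small Mlc1 and Slc6a11 cluster at 0 to 7.79, and the free RNA held 2.67 to 9.19. The 19 UMIs in OEG of the KO old library came from 1 of 773 cells. The Vtn and Rgs5 cluster, too small to be named at 17 cells, was not compared.

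Cx3cl1 (ENSMUSG00000031778, chr8:94772009-94782427, plus strand) was highest in neurons, at 219 CPM in young and 370.2 in old WT, and 294 and 334 in young and old KO. Between 59.1% and 76% of neurons had a UMI, 19.9 to 28.9% after thinning. Endothelial cells came next, with 35.6 CPM in old WT and 93.6 and 102 in young and old KO, then the OPCs of KO old at 25.7. OEG at 3.43 to 13.1 and astroglia at 2.32 to 5.78 overlapped each other. Among neuroblasts, the precursors of the olfactory bulb neurons, it was at 0.316 to 2.63, with 0.139 to 1.43% of cells positive. Free RNA carried Cx3cl1 at 10.7 to 102 CPM, which only neurons exceeded in every library compared, while the endothelial values of WT old, KO young and KO old lay below or near the 86.7, 82.7 and 102 of their own libraries. In neurons WT young lay under the other libraries with a counting interval of 182 to 262, and the KO old group alone had mice with at least 20 tagged neurons, so no comparison over mice was possible.

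Where Cx3cl1 could be tested it was a matter of few UMIs. Young WT mice held 3 and 3 UMIs of it in vSVZ astroglia and old ones 9 and 17, which gave 1.57 ± 0.64 (adjusted p = 0.0951). For OEG these were 2 and 0 against 23 and 21 UMIs, which gave 2.03 ± 0.89 (adjusted p = 0.2598). Neither passed, and the KO age differences were 0.45 ± 0.52 and 0.80 ± 0.44. The age differences did not pass as different between genotypes. The interaction was −1.12 ± 0.85 in vSVZ astroglia (adjusted p = 0.603) and −1.22 ± 1.08 in OEG (adjusted p = 0.745).

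Ccl3 (ENSMUSG00000000982, chr11:83647844-83649355, minus strand) and Ccl4 (ENSMUSG00000018930, chr11:83662584-83664683, plus strand) lie close together, and both were genes of the microglia. Ccl3 stood at 701 CPM in young and 2054 in old WT microglia, and at 1061 and 2965 in young and old KO. A Ccl3 UMI was found in 31.5% and 48.8% of the WT and 41.9% and 67.4% of the KO cells. Ccl4 stood at 1702 and 6720.0 in WT and at 2286 and 7091 in KO, with UMIs in 45.6% and 69.8%, and 52.7% and 67.4% of cells. The old libraries were thus 2.93-fold (WT) and 2.80-fold (KO) higher for Ccl3 and 3.95-fold and 3.10-fold higher for Ccl4. Outside microglia neither gene passed 1.67 CPM in any class and library, below the 7.36 to 92.3 found in free RNA.

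The difference between old and young microglia was also seen in single mice, as far as they could be told apart. For Ccl3 the young mice had 619.8 and 719 CPM (WT) and 1010.2 and 1085 (KO), and the only old mice with at least 20 tagged microglia had 2098 (WT old mouse 1) and 2704 (KO old mouse 2). For Ccl4 these were 1201 and 1815, 1681 and 2531, and 8655 and 6513. All 4 young mice lay below both old mice for both genes. The share of all genes that separate these mice in the same way was not counted. WT old mouse 1 gave 27 and KO old mouse 2 gave 38 of the 43 microglia of its library. Their values thus repeat most of the cells behind the library values. With 1 mouse per old group no test of age was made. The summed level of 12 immediate early and stress genes was 38356 and 41110 CPM in young and old WT and 36149 and 41624 in young and old KO microglia, all 12 detected in each. The summed border macrophage markers were at 87.4 and 473 in WT and 43.8 and 107 in KO, 3 or 4 of 5 detected, with Lyve1 at 0 in all 4 libraries and F13a1 at 0 in both KO libraries. Their part in the Ccl3 and Ccl4 levels was not tested.

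Cells with Ccl3 mostly held Ccl4 too. Of Ccl3-positive microglia, 72.3% (young) and 85.7% (old) had a Ccl4 UMI in WT, and 79.5% and 79.3% in KO, against 33.3% and 54.5%, and 33.3% and 42.9%, of Ccl3-negative ones. The positive cells were the deeper ones in 3 of the 4 libraries, with a median of 5257 against 4444 UMIs in WT young and 6611 against 4495 in KO young, but 6261 against 6418 in KO old.

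**Figure D3:**
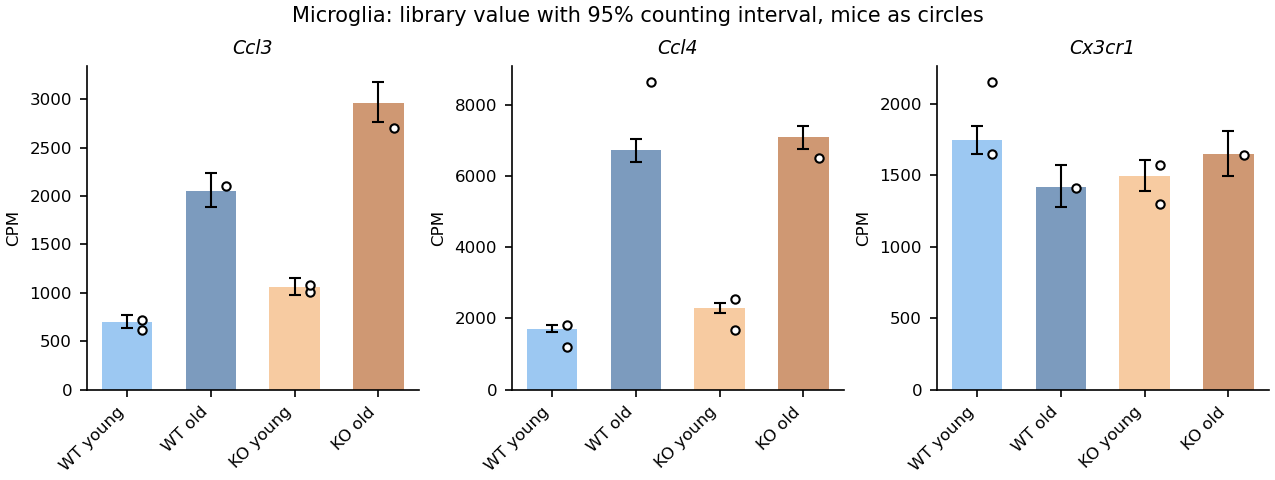
Ccl3, Ccl4 and Cx3cr1 in microglia in CPM, with bars for each library, error bars for its 95% counting interval and circles for mice with at least 20 tagged microglia. Ccl3 and Ccl4 stand higher in both old libraries (2054 and 2965, 6720.0 and 7091) than in both young ones, whereas Cx3cr1 stays between 1419.9 and 1747.

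Cx3cr1 (ENSMUSG00000052336, chr9:119901616-120069879, minus strand), the microglial receptor for Cx3cl1, stood at 1747 CPM in young and 1419.9 in old WT microglia and at 1498 and 1647 in KO, in 95.3 to 99.3% of microglia. No other class passed 0.750 CPM. Between KO and WT young microglia, the only condition comparison with 2 mice on each side, Cx3cr1 differed by −0.41 ± 0.18 (adjusted p = 0.564), Ccl3 by 0.60 ± 0.20 (adjusted p = 0.189) and Ccl4 by 0.43 ± 0.16 (adjusted p = 0.391). None was past the threshold, which 0.638% of the 4546 genes tested passed.

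Cxcl10 (ENSMUSG00000034855, chr5:92346638-92348889, minus strand) was near absent. OEG held 1 (young) and 8 UMIs (old) of it in WT, in 1 of 192 and 3 of 607 cells, and 3 and 0 UMIs in KO, in 2 of 453 and 0 of 773 cells. The last, taken as up to 3 counts, allows a share of up to 0.388% of cells with a UMI. Endothelial cells held none in the libraries compared. They numbered 21 (WT old), 40 (KO young) and 24 (KO old), too few to bound a low share. A single UMI each was found in microglia of the old KO, astroglia of the young KO and activated progenitors of the young WT library, and the free RNA held none. This low level stood beside a summed level of 12 interferon response genes of 2069.9 and 2373 CPM in young and old WT OEG against 863 and 964 in KO. The Cxcl10 promoter carries 2 GAAA blocks with any 2 bases between them, the core of an interferon response element (searched on both strands in the 250 bases before the transcript start, RefSeq on GRCm38). It is shown here because the gene was near absent in a class with high interferon response genes in WT, with the matching bases in capitals, at chr5:92348890-92349139, minus strand.

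Cxcl10: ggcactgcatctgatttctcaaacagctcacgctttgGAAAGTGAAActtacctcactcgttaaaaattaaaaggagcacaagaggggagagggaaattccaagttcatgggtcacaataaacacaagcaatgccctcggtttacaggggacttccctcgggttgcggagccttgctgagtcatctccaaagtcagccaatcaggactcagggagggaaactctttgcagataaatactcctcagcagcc

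The pattern was found in 978 of 32851 promoters (2.98%), and in 2 of the 8 members with a promoter sequence, Cxcl10 and Cxcl14. A match is no evidence that a factor binds there.

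Of the receptors, Cxcr4 (ENSMUSG00000045382, chr1:128588199-128592293, minus strand), the signalling receptor for Cxcl12, was highest in OEG, the glia that wrap olfactory axons. Its level there was 141 CPM in young and 209.7 in old WT and 195 and 227 in young and old KO, in 49.0% and 64.7%, and 66.2% and 66.6%, of cells, and in 13.5 to 18.2% after thinning. Activated progenitors were next at 17.8 and 37.7 in WT and 23.3 and 36.3 in KO, with 16.0 to 33.7% of cells positive, followed by astroglia at 5.59 to 12.05 and neuroblasts at 2.63 to 5.31. The ranges of these 4 classes did not overlap. Neurons, which gave the background, held 0 to 5.44 CPM in 0 to 3.23% of cells, at a median of 5255 to 7075.5 UMIs per cell against 11205 to 13621 in activated progenitors. After thinning the shares were 0 to 0.446% in neurons and 1.96 to 3.93% in activated progenitors. The neuroblast level is within the neuron range. Free RNA carried Cxcr4 at 12.95 and 82.1 CPM in young and old WT and at 18.4 and 64.2 in young and old KO. The activated progenitors lay above the free RNA of their own library when young and below it when old. Astroglia lay below it in every library. The part of free RNA in these levels was not tested.

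Within classes Cxcr4 followed subclusters. The Npy and Vtn cluster of OEG held 207 to 292 CPM over the 4 libraries against 47.9 to 102 in the Vtn and Clca3a1 cluster, without overlap. In the lineage, the eYFP-rich astroglia held 30.3 to 48.4, while the 4 other large astroglial clusters held 0 to 4.46. The small Mlc1 and Slc6a11 astroglia held 0 to 43.0, which overlapped the range of the eYFP-rich cluster. The proliferating progenitor clusters held 11.6 to 17.1 (Hells and Rrm2) and 16.2 to 45.8 (Hist1h1b and Top2a). Among neuroblasts the cluster with Ccnd2 and St18 (Dlx6os1, Stmn2 and Dlx5 in the plot) reached the highest level, at 2.74 to 9.65. Cxcr4 and Cxcl14 thus ran in opposite directions between the eYFP-rich astroglia and the other large clusters.

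**Figure D4:**
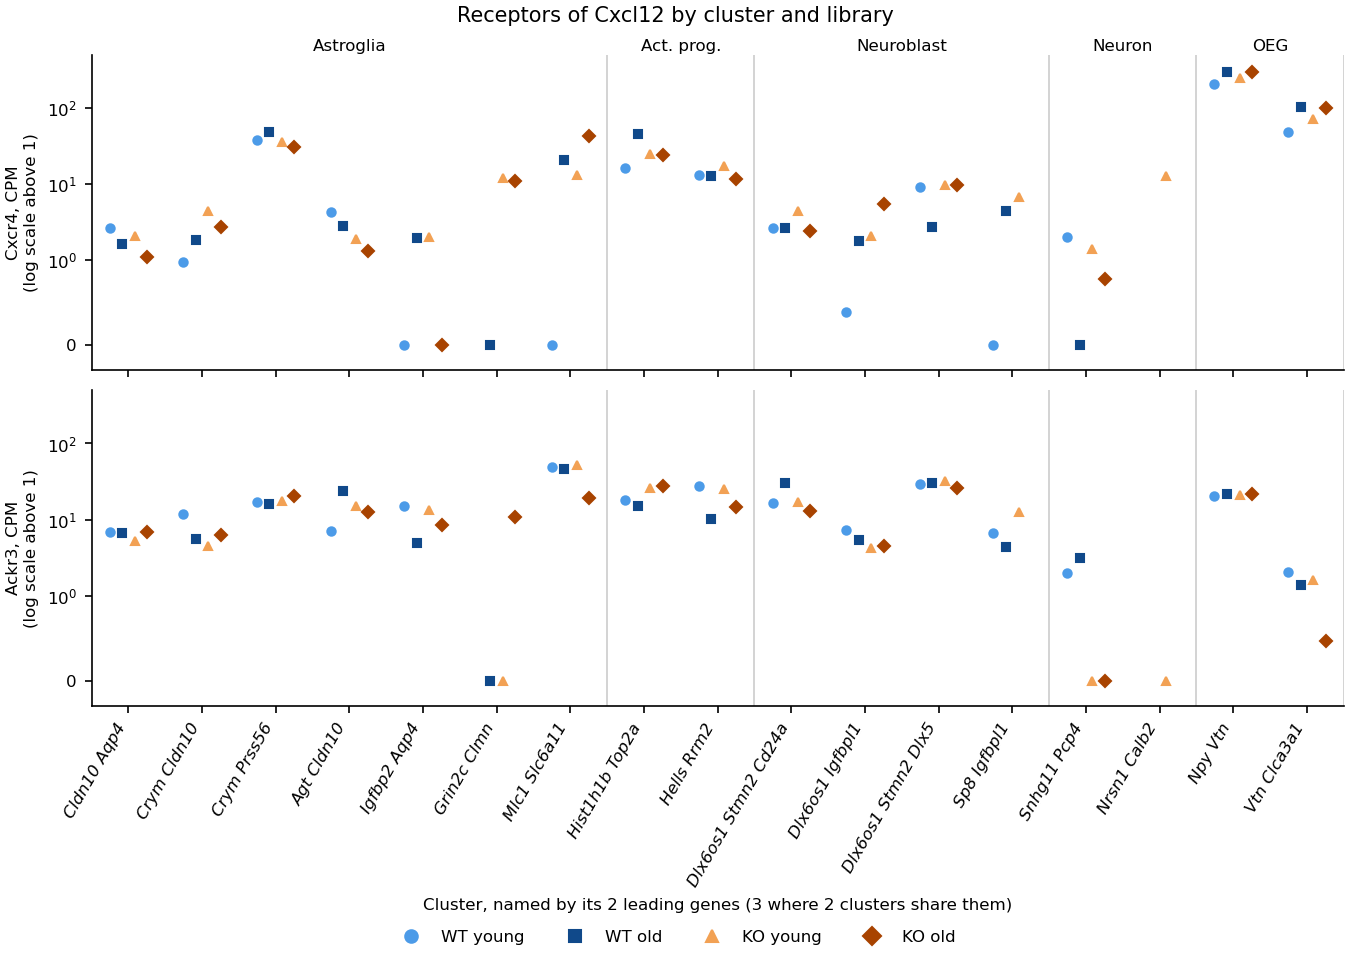
Cxcr4 (top) and Ackr3 (bottom) in CPM (log scale above 1) in clusters of 5 classes, each named by its leading genes and without 1 progenitor cluster, 1 point per library with at least 20 cells. Cxcr4 is high in both OEG clusters (47.9 to 292) and in the eYFP-rich astroglia (30.3 to 48.4), and Ackr3 separates the OEG clusters (20.4 to 21.7 against 0.473 to 2.08).

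Across conditions Cxcr4 changed in 1 comparison. For vSVZ astroglia it was 13.4 and 18.3 CPM in young against 14.5 and 7.82 in old WT mice, and 9.70 and 18.8 against 5.75 and 5.56 in KO mice, on 11 to 42 UMIs per mouse. KO old mice lay below KO young mice, with a difference of −1.32 ± 0.39 (adjusted p = 0.0423), while the WT groups overlapped (−0.67 ± 0.41, adjusted p = 0.283). The age difference did not pass as different between genotypes (interaction −0.65 ± 0.57, adjusted p = 0.673, with 1.39% of genes called). The call was lost without either KO old mouse (adjusted p = 0.162 and 0.149), without KO young mouse 2 (−0.75, adjusted p = 0.651), with DESeq2 (adjusted p = 0.456) and with a strict hashtag call (adjusted p = 0.209). It was highest in the eYFP-rich cluster, at 19.1 to 60.1 CPM in the 8 mice against 0 to 4.25 in the other clusters, and within that cluster the KO age difference was −0.41 (adjusted p = 0.832). The summed immediate early and stress genes were at 1878 and 4771 CPM in the KO young mice and at 1873 and 1827 in the KO old mice, and their part in the difference was not tested.

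OEG held 147 and 139 CPM of Cxcr4 in young and 204 and 203 in old WT mice, and 199 and 180.4 against 165 and 248 in KO mice. The WT young mice were the lowest of the 8 and did not overlap the others. The age difference was 0.48 ± 0.20 in WT (adjusted p = 0.217, 2.03% of 10085 genes called) and 0.15 ± 0.15 in KO (adjusted p = 0.845, 0.278% called). KO and WT differed by 0.44 ± 0.20 in young (adjusted p = 0.427, 0.575% called) and 0.11 ± 0.14 in old mice (adjusted p = 0.909, 0.397% called). In activated progenitors the KO young mice had 40.3 and 14.1 and the KO old mice 63.1 and 55.8, a difference of 1.11 ± 0.47 (adjusted p = 0.341, 0.372% of 7530 genes called), and KO and WT young mice differed by 0.03 ± 0.49 (adjusted p = 0.996, 0.0664% called). WT old had 1 mouse with at least 20 activated progenitors and was not tested there. Under the strict hashtag call only WT young mouse 2 kept at least 20, so the progenitor comparisons could not be repeated with it.

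Ackr3 (ENSMUSG00000044337, chr1:90203980-90216751, plus strand), the scavenging receptor, had no single home. Endothelial cells held 202 CPM in old WT and 74.9 and 68.1 in young and old KO, and the OPCs of KO old held 72.0 within that range. Activated progenitors at 19.6 to 25.9 overlapped neuroblasts at 12.2 to 19.99, which in turn overlapped OEG at 12.9 to 15.2. A cluster of 425 cells led by Cenpf, Cenpa and Ccnb1, 91.8% of them with an eYFP UMI, stayed unnamed and outside these classes. It held 31.9 to 41.3 in the 2 libraries with at least 20 of its cells. Astroglia at 9.72 to 12.5 lay just below OEG, and neurons at 0 to 2.97, microglia at 0 to 2.82 and oligodendrocytes at 0 lay lowest. The share of positive cells was 18.9 to 26.8% in activated progenitors, 6.05 to 9.40% in neuroblasts and 0 to 2% in neurons. After thinning the same shares were 1.79 to 2.66%, 1.15 to 1.91% and 0 to 0.478%. Free RNA carried it at 7.93 to 11.8 CPM.

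Ackr3 also differed between subclusters of a class. The Npy and Vtn cluster of OEG held 20.4 to 21.7 CPM and the Vtn and Clca3a1 cluster 0.473 to 2.08. Among neuroblasts, the Ccnd2 and St18 cluster held 25.7 to 32.0 and the Dlx6os1 and Igfbpl1 cluster 4.20 to 7.43, while the largest cluster, at 12.9 to 30.3, overlapped the first. The small Mlc1 and Slc6a11 astroglia held 19.5 to 51.8. Cxcr4 and Ackr3 UMIs fell in the same neuroblast in 6 of 45 (young) and 0 of 5 (old) WT and 5 of 71 and 2 of 15 KO cells with Cxcr4. These shares were 13.3% and 0% in WT and 7.04% and 13.3% in KO. Of neuroblasts without Cxcr4, 6.41% and 9.55% in WT and 7.97% and 5.84% in KO had an Ackr3 UMI. The direction thus differed between libraries.

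Ackr3 was lower in vSVZ than in RoB astroglia, by −0.89 ± 0.24 (adjusted p = 0.00880) and in 6 of 8 mice. In vSVZ the 8 mice held 7.26 to 12.2 CPM, on 8 to 26 UMIs each, and in RoB 9.51 to 28.6, on 4 to 26 UMIs each. Without WT old mouse 2 the difference was −0.74 (adjusted p = 0.0758). Outside the eYFP-rich cluster the mice held 1.15 to 9.91 in vSVZ and 9.82 to 29.4 in RoB, and within it, in vSVZ, 7.78 to 30.1. With those cells left out Ackr3 did not pass the count filter and was not tested, with medians over mice of 7.24 in vSVZ and 20.6 in RoB. No condition comparison of Ackr3 passed in any class. In neuroblasts the differences ran from −0.87 to 0.27 with SEs of 0.56 to 0.76 (smallest adjusted p = 0.563), where 3.37% (age in WT), 0.399% (age in KO), 1.68% (genotype in young) and 0.148% (genotype in old) of 6766 genes were called.

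Over all condition comparisons the members gave 49 tests in 19 comparisons, and 3 were called, Cxcl14 with age in WT and in KO vSVZ astroglia and Cxcr4 with age in KO vSVZ astroglia. These were 1 of 4 members tested where 16% of all genes were called (WT) and 2 of 4 where 4.8% were (KO). The 2 tests between tissues, for Cxcl14 and Ackr3, were both called, where 13.3% of all genes were. Members that did not pass the filter on low counts in a class were not tested there, and Cxcl10 and Cxcl12 were tested in none.

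**Figure D5:**
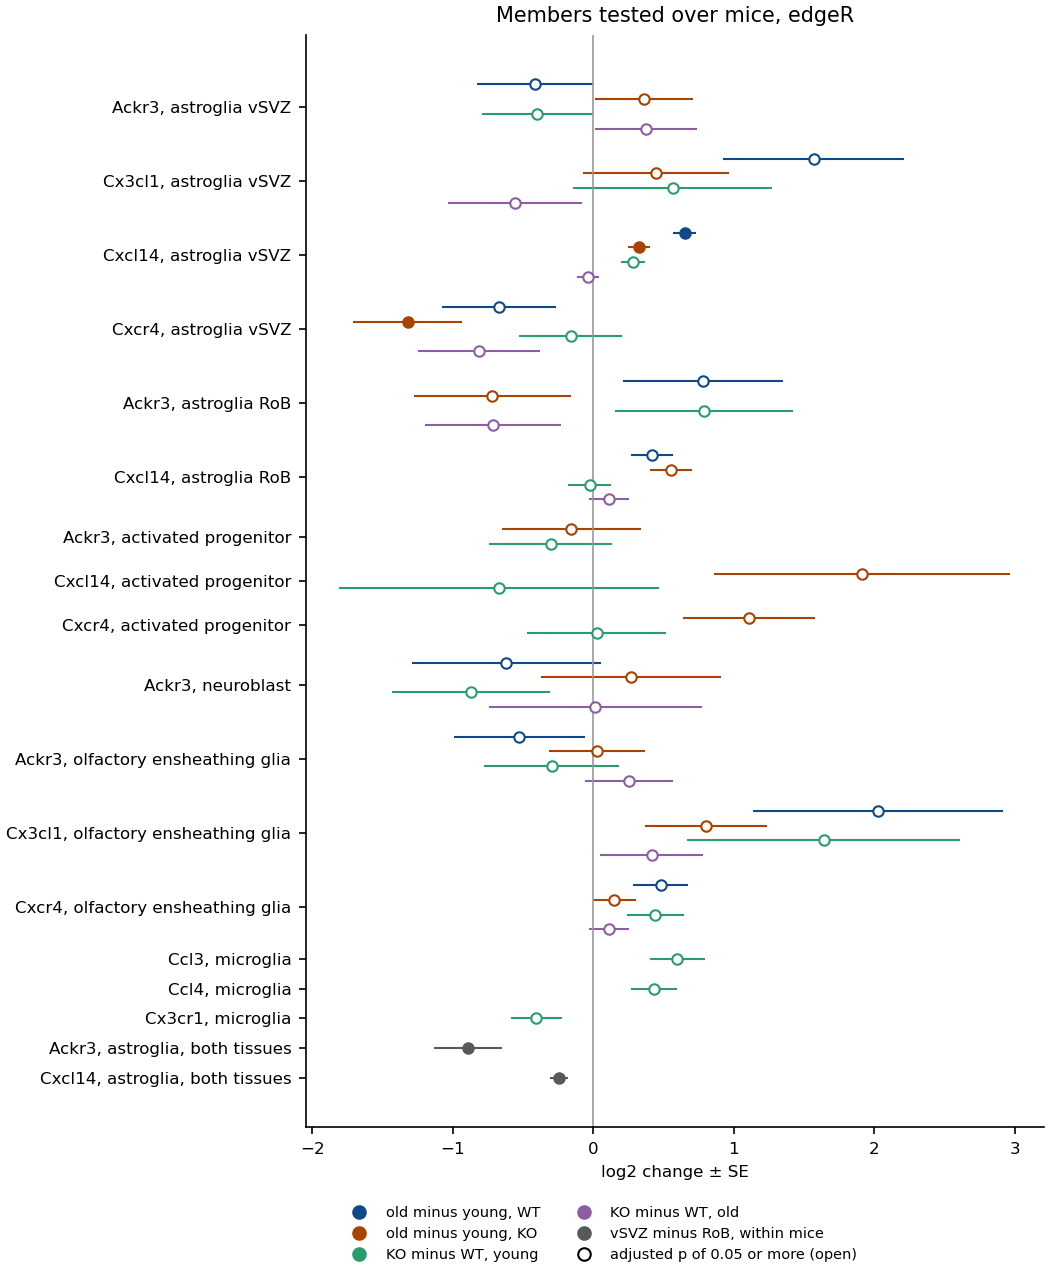
Log2 difference ± SE of each member in each class and comparison with at least 2 mice per group (edgeR). Filled points are called at an adjusted p under 0.05: Cxcl14 with age in WT (0.65) and KO (0.33) vSVZ astroglia, Cxcr4 with age in KO vSVZ astroglia (−1.32), and Cxcl14 (−0.25) and Ackr3 (−0.89) between the tissues.

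The rest of the chemokine family was sparse. Of 36 ligand genes found of 37 listed, 12 passed 20 CPM as the median of their highest class and 15 stayed under 1, and 4 had no UMI in any named cell. Of 23 receptor genes, 4 passed 20, 14 stayed under 1 and 8 had no UMI. Among those outside the 9 members, the highest were Ccl12 (159 CPM), Ccrl2, an atypical receptor (143), and Pf4, the platelet factor (137), all in microglia. The Pf4 UMIs lay in 1.08 to 4.65% of cells. In the endothelial cells Cxcl1, a neutrophil attractant, was highest in KO old and KO young (119 and 169, in 1 and 2 cells), and in neuroblasts and neurons Ccl27a led with 82.4 to 94.3 and 40.1 to 76.1.

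All family genes together, members included, gave 83 tests over the same 19 comparisons and 5 calls, those beyond the members being Ccl12, where 0.638% of all genes were called, and Ccl27a, where 16% were. Ccl12 (ENSMUSG00000035352, chr11:82101845-82103400, plus strand), a monocyte attractant, stood at 176 and 183 CPM in young WT microglia and at 69.2 and 42.0 in young KO, on 10 to 106 UMIs a mouse, a difference of −1.87 ± 0.35 (adjusted p = 3.61e-05). The single old mice had 171 (WT) and 278 (KO). The summed interferon response genes stood at 400.4 and 508 CPM in young and old WT microglia and at 127 and 192 in KO. The call was lost without KO young mouse 2 (adjusted p = 0.265), without WT young mouse 2 (adjusted p = 0.821) and with DESeq2 (adjusted p = 0.999986). Its promoter is shown because it was the family gene called between genotypes. The 250 bases before its start at chr11:82101595-82101844, plus strand, hold no such pair of GAAA blocks on either strand, which says only that these letters are not in this window.

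Ccl12: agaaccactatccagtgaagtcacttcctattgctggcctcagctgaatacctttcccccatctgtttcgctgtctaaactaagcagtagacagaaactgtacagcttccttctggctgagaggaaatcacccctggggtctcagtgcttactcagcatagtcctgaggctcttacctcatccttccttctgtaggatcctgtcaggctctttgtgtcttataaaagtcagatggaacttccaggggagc

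Ccl27a (ENSMUSG00000073888, chr4:41769467-41774247, minus strand) fell with age in WT vSVZ astroglia, from 50.1 and 35.9 to 30.8 and 22.1 CPM (−0.71 ± 0.24, adjusted p = 0.0402, with 16% of genes called). In KO the young mice had 28.0 and 30.0 and the old mice 31.6 and 29.2 (0.09 ± 0.21, adjusted p = 0.869), and the difference between the age changes did not pass (0.80 ± 0.32, adjusted p = 0.236). Its genomic copies are near identical, so how the counting split its reads is uncertain, and the call was lost under most alternatives, with DESeq2 for example (adjusted p = 0.227).

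Of 13627 genes, the ones whose level ran most like each member over 30 class-by-library combinations (Pearson r of log2(CPM + 5), a description without a test, in combinations that share libraries) were as follows. Tmem252, Gipc3 and Adgrl4 ran with Cxcl12 (r = 0.998 each). 9630001P10Rik, Clu and Gm5083 ran with Cxcl14 (0.9496, 0.926 and 0.924), and Rbm46, Cdh24 and Rassf10 with Cxcr4 (0.928, 0.924 and 0.923). Lima1, Il17rd and Slc25a24 ran with Ackr3 less closely (0.894, 0.882 and 0.859). Rapgef4, Etl4 and Tmtc1 ran with Cx3cl1 (0.959, 0.945 and 0.936), and Was, Spi1 and Cd86, genes of myeloid cells, with Cx3cr1 (r of 1.00 each after rounding). Nlrp3 and Upk1b ran with Ccl3 and Ccl4, which were also among the genes most like each other (0.999).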

How the data were processed

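Single cells of the vSVZ and RoB were measured with 10x 3′ chemistry in 4 libraries. The authors removed index-hopped reads and counted UMIs with kallisto and bustools on GRCm38 (per the labels), and hashtags with CITE-seq-Count. The deposited values are raw counts per barcode and gene for 844265 barcodes of all 4 libraries, with no cell filter, and raw hashtag counts per barcode. The gene annotation was not given in the sources used here. Of the 32287 gene IDs, 32158 were matched to a symbol, and gene positions are from GENCODE on GRCm38.

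From these counts, cells with 100 to 6000 genes, 1000 to 20000 UMIs and at most 10% mitochondrial UMIs were kept, and 339 predicted doublets (1.84%) were removed with Scrublet in scanpy 1.11.5, leaving 5818 and 2394 cells in young and old WT and 6462 and 3377 in young and old KO. Clusters (Leiden resolution 1 on 2000 variable genes, 50 components and 15 neighbours) were made without the chemokine family, interferon genes, mitochondrial genes and transgenes, and were named from fixed marker lists. A cluster whose leading genes or markers did not meet the naming rule stayed unnamed. Hashtag counts were low (median 5 to 7 per cell), so mouse and tissue were called with a mixture model. UMIs were summed per mouse and class with at least 20 cells and tested with edgeR 4.0.16 (R 4.3.3; filterByExpr, TMM, quasi-likelihood, two-sided, Benjamini-Hochberg over all genes tested in a class, threshold 0.05), 1 fit per class over all 4 groups, and with the mouse as a block for vSVZ against RoB. On simulated counts with 200 genes changed by 1 log2 unit, 58 to 63.5% were recovered in vSVZ astroglia, 35% in microglia and 89% between tissues. Recovery was 35 to 51.5% in RoB astroglia, 33.5 to 54% in neuroblasts and 30 to 68% in OEG. In activated progenitors it was lowest, at 25.5 and 29.5%. Shares carry exact Clopper-Pearson and levels exact Poisson intervals at 95%, which cover counting error only, since molecules of 1 mouse are not independent samples. A count of 0 allows up to 3 counts.

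The members and gene lists were chosen with earlier results of these data known. The text names the 9 members, other family genes that were called or were among the 3 highest of a class above 20 CPM, and for each member the 3 genes most like it. Alternatives were DESeq2 1.42.0, no TMM factor, no count filter, a strict hashtag call (posterior of at least 0.95), Leiden resolution 0.5, doublets kept, the astroglia without or with only the eYFP-rich cluster (the latter added after the data had been seen), thinning, and leaving out each mouse. The strict call left at least 20 activated progenitors in WT young mouse 2 alone. It left at least 20 neuroblasts only in WT young mice 1 and 2. Neither class could therefore be tested under it. Hashtag libraries were used only to assign cells, and the sample whose label gives no group was not analysed here. The values of 1 cluster of activated progenitors are not reported here.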

Additional observations from a re-analysis of the deposited data

How the results depend on the processing

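The counts of called members moved as follows. In vSVZ astroglia with age in KO (2 called) the count was 1 with DESeq2, 1 with the strict hashtag call, 0 at Leiden resolution 0.5, 0 with doublets kept, 0 without the eYFP-rich cluster and 0 in that cluster alone, and 0 to 2 when each mouse was left out. With age in WT (1 called) it was 0 at Leiden resolution 0.5, with doublets kept, and without or with only that cluster. Resolution 0.5 left 1443 cells led by Prss56, Crym and Thbs4 outside the astroglia, and keeping doublets, which changed the clusters, left 1001 such cells unnamed, so both settings remove them too and say nothing of doublets alone. Without these cells Cxcr4 did not pass the count filter and was not tested. With no count filter 1 member was called where none was before in 3 comparisons, Cxcl14 with age in KO RoB astroglia and between genotypes in young vSVZ astroglia, and Cxcr4 with age in WT OEG (adjusted p = 0.0450), and leaving out each mouse gave 0 to 1 in the first. Between tissues (2 called) the count was 0 at resolution 0.5, 1 with the strict call, 0 without the cluster and 1 to 2 when each mouse was left out, and under the first 3 of these Ackr3 was not tested, having failed the count filter.

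Signs turned for Cxcl14 with age in KO (−0.024 at resolution 0.5, −0.028 without the cluster) and in WT (−0.0051 without it), for Cxcl14 between tissues (0.089 at resolution 0.5, 0.088 without the cluster), and within that cluster for Ccl27a (0.028) and Cxcr4 (0.69) with age in WT. The changes in cells that these settings make are their construction, and no other cause was tested. Of 207 values of named genes under alternatives, 169 kept direction and side of the threshold. Over all genes, counts of calls fell with DESeq2, from 1670 to 678 (age in WT vSVZ astroglia), 502 to 118 (age in KO) and 29 to 3 (microglia), and without WT young mouse 2 from 1670 to 604.

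Median shares after thinning to 1000 UMIs were 0.0668% for Cxcl10 in OEG, 83.7% for Cxcl12 in endothelial cells, 52.4% for Cxcl14 in astroglia, 16.9% for Cxcr4 in OEG, 6.97% for Ackr3 in endothelial cells, 25.8% for Cx3cl1 in neurons and 75.4% for Cx3cr1 in microglia. The median Cxcl14 level in astroglia was 1037 CPM at resolution 0.5 and 1014 with doublets kept, both without those cells, against 886.

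No paired analysis was possible because equal hashtag numbers in different groups mark different mice, for the comparisons between groups. Between tissues, leaving out the replicate block (group in place of mouse) gave −0.25 for Cxcl14 and −0.86 for Ackr3 and changed no call. With 2 mice per group and 1 reaction per group, a low count such as that of Cx3cl1 or Ackr3 limits what could be called, and differences in microglia with age rest on library values.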
